A study of Mus musculus with 6 samples.

Results

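The C-type lectin receptors of myeloid cells are surface proteins that bind sugars and lipids of microbes and dying cells. The 10 genes described here, Clec4f, Clec4a1, Clec4a2, Clec4a3, Clec4b1, Clec4d, Clec4e, Clec4n, Clec7a and Clec10a, were chosen by name from the 34745 genes of the count table. They were selected with the counts of the same comparison already known, so their values are given as a description and carry no p-value. RNA sequencing compared monocytic myeloid-derived suppressor cells (M-MDSCs, sorted immature myeloid cells that restrain T cells) from bone marrow of mTOR-/- and WT mice, with 3 libraries in each group. The study asked what the loss of mTOR, the kinase that couples nutrient supply to growth, does to these cells.

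The mTOR-/- animals carried floxed mTOR alleles (mTOR flox/flox) and Lyz-Cre, which is driven from the lysozyme gene and so acts in monocytes, macrophages and granulocytes rather than in M-MDSCs alone. The WT animals were bought as plain C57BL/6, so Cre and the floxed alleles were not stated for them, and the labels give the strain of both groups as C57BL/6. The age of the mice was not given. The labels call the sequenced cells fresh and sorted, while the study's discussion calls them induced, its word for cells grown from bone marrow with GM-CSF and IL-6. The methods give n = 3 for the mice, and the labels tie no library to an animal. Unless each library came from its own mouse, the p-values below measure only the spread between these libraries, which may be technical.

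Several of these receptors signal through one route. Clec7a (Dectin-1) carries its own activating motif in its tail, while Clec4n (Dectin-2), Clec4d (MCL), Clec4e (Mincle) and Clec4b1 (DCAR1) work through the adaptor FcRgamma. Both kinds recruit the kinase Syk, and Syk passes the signal to the CARD9 complex, NF-kB and NFAT, which switch on cytokine genes. Clec4a2 (DCIR1) instead carries an inhibitory motif that binds phosphatases, and Clec10a (MGL1) and Clec4f take up galactose-type sugars.

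Per the deposited positions on mm10, 9 of the 10 genes lie on chromosome 6 and Clec10a lies on chromosome 11 (70156197 to 70170834, forward strand). A run of 7 of the 10 genes, in the order Clec4a1, Clec4a3, Clec4b1, Clec4a2, Clec4n, Clec4d and Clec4e, spans 368 kb from 122921848 to 123289870. The lectin genes Clec4a4 and Clec4b2, which are not among the 10, also lie within this stretch. Of these 7 genes, 6 are on the forward strand and Clec4e is on the reverse strand. Clec7a (129461591 to 129472779, reverse strand) lies 6.17 Mb beyond this run, in the natural killer receptor region. Clec4f (83644542 to 83656187, reverse strand) lies 39.3 Mb before it.

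The stretches before the start sites of 5 receptors are shown because they cover the receptor read in one group only (Clec4f), the lower Clec7a, the abundant Clec4d with its partner Clec4e, and the barely read Clec4b1. The bases come from RefSeq on GRCm38.p6, the build also called mm10, and the table of start sites matched 8 of the 10 genes. Each line runs 5' to 3' along the gene's own strand, and capitals mark GAGGAA, or its reverse complement TTCCTC, the core that the myeloid factor PU.1 binds. The windows are chr6:83656188-83656366 (reverse strand) for Clec4f, chr6:129472780-129473029 (reverse strand) for Clec7a, chr6:123261857-123262106 (forward strand) for Clec4d, chr6:123289872-123290121 (reverse strand) for Clec4e and chr6:123049712-123049961 (forward strand) for Clec4b1.
Clec4f: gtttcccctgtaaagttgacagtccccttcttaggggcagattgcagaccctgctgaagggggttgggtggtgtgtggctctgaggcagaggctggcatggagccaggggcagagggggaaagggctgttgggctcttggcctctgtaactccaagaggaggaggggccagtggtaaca
Clec7a: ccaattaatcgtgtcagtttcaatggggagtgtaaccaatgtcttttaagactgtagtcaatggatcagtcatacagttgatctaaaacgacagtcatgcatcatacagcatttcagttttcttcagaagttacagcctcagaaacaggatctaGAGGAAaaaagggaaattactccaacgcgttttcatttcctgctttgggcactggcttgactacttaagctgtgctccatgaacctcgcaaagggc
Clec4d: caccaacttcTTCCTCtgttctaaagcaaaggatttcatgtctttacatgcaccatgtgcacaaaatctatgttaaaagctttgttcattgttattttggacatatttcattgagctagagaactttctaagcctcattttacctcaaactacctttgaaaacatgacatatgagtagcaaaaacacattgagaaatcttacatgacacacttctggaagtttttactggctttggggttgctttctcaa
Clec4e: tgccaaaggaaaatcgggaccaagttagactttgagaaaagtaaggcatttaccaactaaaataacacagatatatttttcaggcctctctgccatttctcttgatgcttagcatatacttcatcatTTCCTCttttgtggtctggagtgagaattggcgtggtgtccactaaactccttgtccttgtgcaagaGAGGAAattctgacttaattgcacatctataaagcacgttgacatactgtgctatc
Clec4b1: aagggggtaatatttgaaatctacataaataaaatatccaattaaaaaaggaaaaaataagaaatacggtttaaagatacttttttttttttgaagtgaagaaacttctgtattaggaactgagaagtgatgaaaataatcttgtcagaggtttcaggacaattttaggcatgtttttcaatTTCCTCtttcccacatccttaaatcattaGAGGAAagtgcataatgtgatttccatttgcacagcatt
The Clec4f window is cut to the 179 bases that lie outside the deposited gene.

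Over the 250 bases before each start site, GAGGAA on either strand was present for 6 of the 8 matched receptors. These were Clec4a1, Clec4a3, Clec4b1, Clec4d, Clec4e and Clec7a. The 8 receptors have 10 such windows, since Clec4a3 and Clec7a have more than 1 start site. Of these windows 7 held a match, against 23.3% of all 32851 RefSeq promoter windows. The Clec7a windows largely overlap and hold the same match, which is therefore counted more than once. Clec4a3 counts through only 1 of its windows, where the match lies inside the deposited gene. Clec4b1 and Clec4e each hold 2 matches, and a relation between matches and level was not tested. Clec4f and Clec4a2 hold none. The C/EBP letters TTNNGNAA were found for 4 receptors (Clec4f, Clec4a2, Clec4d and Clec4e), in 4 of the 10 windows against 36.8% of all windows. The matches of Clec4f and Clec4a2 lie inside the deposited genes, and that of Clec4f is not in the bases shown above. The NF-kB motif was found for Clec4a1 alone, in 1 of the 10 windows against 45.8%. The interferon response motif was found for Clec4b1 alone, in 1 of the 10 windows against 2.98%, and shares bases with one of its GAGGAA matches. The AP-1 letters TGANTCA (6.75% of all windows) and the E-box CACGTG (6.02%) were found for 0 of the 8. A match is a run of letters and not a measured binding site.

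Read counts were scaled to the library total (CPM) with TMM factors, and a gene is called changed where edgeR's quasi-likelihood test gave an adjusted p under 0.05 and the fold change was at least 2. Fold changes are mTOR-/- over WT. The libraries labelled mTOR-/- held 12317507 to 12903191 counts and those of WT 14066578 to 14768126, so that a floor of 3 counts was 0.229 to 0.245 CPM and 0.205 to 0.214 CPM. Floors cover counting error only, since copies made by PCR are not independent molecules. Of the 34745 genes, 12537 passed the filter on low counts and 212 were called, which is 1.69%. The receptors numbered 9 among the genes that passed, and Clec4b1 did not. Clec4f passed only through the mTOR-/- libraries, so it had to differ.

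The libraries labelled mTOR-/- were not set apart by Mtor itself, which was read 883, 983 and 908 times there and 980, 875 and 929 times in WT (log2 fold change 0.15, SE 0.11, adjusted p = 0.442 by edgeR's quasi-likelihood test). These counts cover the whole gene, so they cannot show whether only its floxed part was lost. The paper states that it verified the depletion in MDSCs. Lyz2, the lysozyme gene of these cells, fell (log2 fold change -1.68, SE 0.20, adjusted p = 0.00255 by edgeR). H2-Ea-ps, an MHC class II gene that C57BL/6 mice do not transcribe, was read 265, 219 and 270 times in mTOR-/- and 0 times in every WT library. A difference in genetic background between the groups therefore cannot be told apart from the loss of mTOR in any value below. Replicate 3 of mTOR-/- correlated with the other mTOR-/- libraries at 0.952 to 0.955 across genes, while the WT libraries correlated at 0.978 to 0.981. Of the monocyte markers, Itgam (CD11b), Ly6c2, Csf1r and Cd14 were read in every library, and Cx3cr1 was at or near 0. The paper defines M-MDSCs as CD11b-positive, Ly6G-negative and Ly6C-high cells. Ly6c2 was lower in mTOR-/-, at 72.6, 84.9 and 104 CPM against 182, 116 and 226 CPM in WT, and was not called. Ly6g was higher in mTOR-/-, at 14.1, 10.7 and 15.1 CPM against 0.853, 2.39 and 5.06 CPM in WT. It was called (log2 fold change 2.26, adjusted p = 0.0365 by edgeR).

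Among the 10 receptors, 2 lay past both thresholds, Clec4f and Clec10a, and both were higher in the mTOR-/- libraries, where 1.04% of all tested genes were called higher. None was lower past both thresholds, where 0.654% of all tested genes were called. The closest to the line were Clec10a inside it, at a log2 fold change of 1.48, and Clec7a outside it, at -0.86. The libraries of the groups did not overlap for 4 receptors (Clec4f, Clec4a3, Clec7a and Clec10a), beside 28.4% of all tested genes. Of the 9 receptors that passed the filter, 2 had a positive and 7 a negative log2 fold change, with a median of -0.11 beside 0.00 over all tested genes. These counts rest on the comparison that was known when the receptors were chosen.

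**Figure D1:**
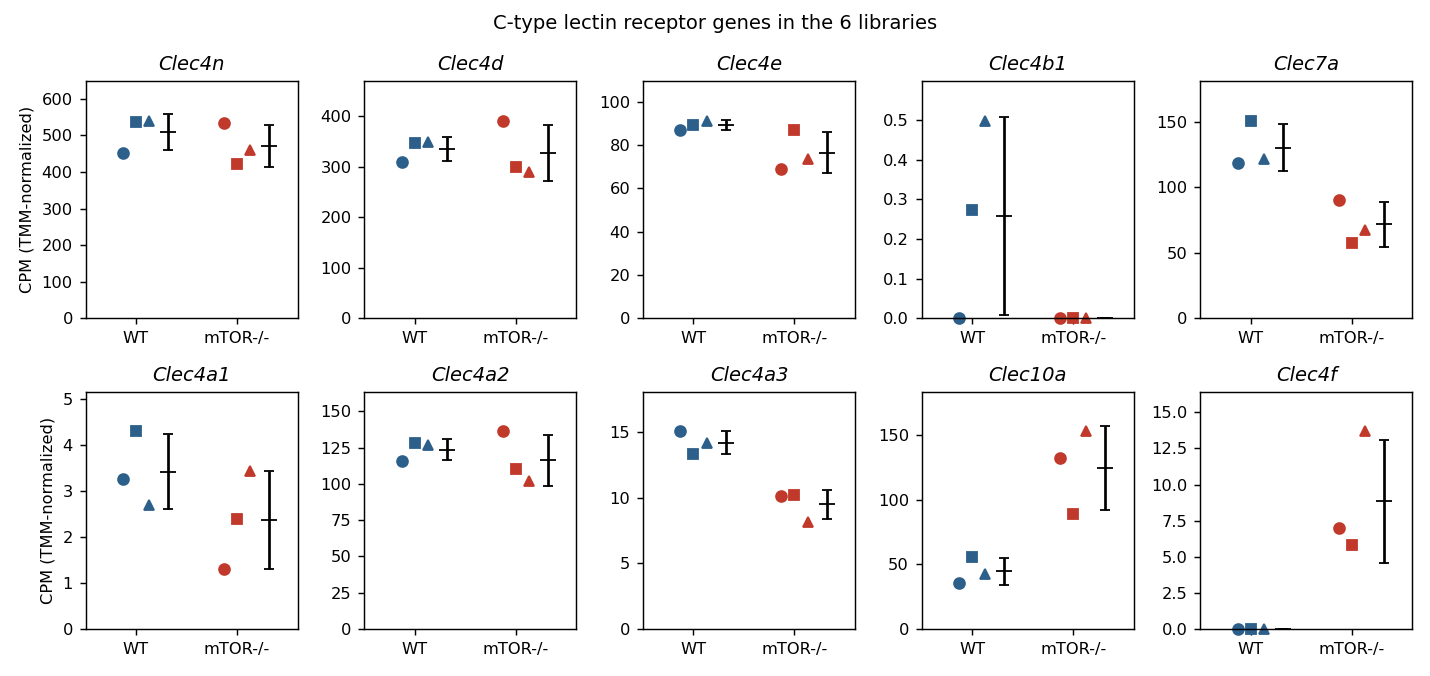
Level of each receptor gene in CPM in each library, with a separate linear axis from 0 for each gene. Circles, squares and triangles are replicates 1, 2 and 3, the black bars are the mean and SD of 3 libraries, and the groups stand clear of each other for Clec4f, Clec4a3, Clec7a and Clec10a.

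Clec4f, the galactose-binding receptor best known from the resident macrophages of the liver, was read in the mTOR-/- libraries only. It was counted 86, 75 and 179 times in mTOR-/- replicates 1, 2 and 3 and 0 times in every WT library. Every mTOR-/- library was far above the floor, and replicate 3, the library that correlated least with its group, held the most. The level was 8.83 ± 4.25 CPM (SD, n = 3) in mTOR-/- M-MDSCs, which is at least 41.9-fold higher than the floor of 3 counts per WT library. A WT count of 0 sets only an upper limit, so a WT level under the floor of 0.205 to 0.214 CPM was not detectable at this depth. No transcript stretch of 50 bases was shared between Clec4f and another gene, and no exon of another gene overlapped it on either strand.

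None of the resident macrophage markers, which define the cells Clec4f is known from, was called. Vsig4, Timd4 and Marco were at 0 in all 6 libraries, and 0 of the 3 markers with enough counts to test were called by edgeR (1 at an unadjusted p under 0.05, 0 by DESeq2). The summed level of the 12 markers was 403 to 537 CPM in mTOR-/- and 566 to 645 CPM in WT, nearly all of it Adgre1, which monocytes also express. In bulk RNA, more cells of a type and more RNA per cell cannot be told apart, which holds for every receptor here.

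Clec10a, which binds galactose-type sugars and marks dendritic cells and alternatively activated macrophages, was the other receptor past both thresholds. Its level was 132, 88.7 and 153 CPM in mTOR-/- replicates 1, 2 and 3 and 35.4, 55.8 and 42.5 CPM in the WT libraries. The lowest mTOR-/- library stood above the highest WT library. The means were 125 ± 32.8 CPM and 44.6 ± 10.4 CPM (SD, n = 3 each), a 2.79-fold difference (log2 fold change 1.48, SE 0.22). With each library left out in turn and under the other settings tried, the log2 fold change lay between 1.3 and 1.67.

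Clec10a has a close copy beside it, Mgl2 (MGL2, CD301b), which lies 18647 bases away and binds related sugars. Of the 50-base stretches of Clec10a transcripts, 9.02% also occur in those of another gene, most often Mgl2, so a small part of the counts could belong to either. Mgl2 had 164, 142 and 201 CPM in mTOR-/- and 46.1, 100 and 110 CPM in WT, and it was not called (log2 fold change 0.98, SE 0.28, adjusted p = 0.0886 by edgeR's quasi-likelihood test). The ratio of Clec10a to Mgl2 in CPM was 0.806, 0.626 and 0.762 in mTOR-/- and 0.767, 0.557 and 0.385 in WT, and the groups overlapped.

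Some dendritic cell markers were higher in the same libraries as Clec10a. The summed level of 11 markers was 372 to 463 CPM in mTOR-/- and 114 to 227 CPM in WT. By edgeR 3 of the 8 tested rose (Ciita, log2 fold change 1.83, H2-Ab1, 1.56, and Ccr7, 1.26), beside 1.04% of all tested genes. H2-Ab1 (from 34263209 on chromosome 17) lies near H2-Ea-ps (from 34342933), the gene read only in mTOR-/-. Flt3 and Clec9a had log2 fold changes of -0.46 and -0.39 and were not called, and the sum was mostly Itgax, H2-Ab1 and Ccr7. Siglech was at 0 in every library, and Flt3, Xcr1, Cd209a and Clec9a reached at most 5.67 CPM. The part of these markers in the level of Clec10a was not tested.

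Clec7a, the beta-glucan receptor Dectin-1, stood at the other end. Its level was 90.6, 57.4 and 67.5 CPM in mTOR-/- replicates 1, 2 and 3 and 118, 151 and 122 CPM in WT. All 3 mTOR-/- libraries lay below all 3 WT libraries. The means were 71.8 ± 17.1 CPM and 131 ± 17.9 CPM (SD, n = 3 each), a fold of 0.55 (log2 fold change -0.86, SE 0.17), which is short of the fold threshold. With single libraries left out, Clec7a was past both thresholds in 1 of 6 fits, the one without mTOR-/- replicate 1, the highest of its group. With each library left out in turn and under the other settings tried, the log2 fold change lay between -1.07 and -0.73.

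The most abundant receptors, Clec4n and Clec4d, belong to the Dectin-2 group and follow each other in the run of receptor genes. Clec4n, which binds alpha-mannans of fungi, had 535, 422 and 461 CPM in mTOR-/- and 452, 537 and 541 CPM in WT. The groups overlapped, and the log2 fold change was -0.11 (SE 0.12). Clec4d, which pairs with Clec4e to sense mycobacterial glycolipid, had 391, 299 and 290 CPM in mTOR-/- and 308, 347 and 349 CPM in WT. Its groups overlapped too, with mTOR-/- replicate 1 the highest of all 6 libraries. The log2 fold change of Clec4d was -0.04 (SE 0.13) and turned to 0.01 without mTOR-/- replicate 2 and to 0.04 without mTOR-/- replicate 3.

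Clec4e, the receptor Mincle, had 68.8, 87.2 and 73.7 CPM in mTOR-/- and 86.9, 89.2 and 91.4 CPM in WT. Only mTOR-/- replicate 2 reached the WT range, and the log2 fold change was -0.22 (SE 0.11). Clec4b1 was at the edge of detection, at 0 counts in all 3 mTOR-/- libraries, against 0, 4 and 7 counts in WT. Since WT replicate 1 was also at 0 and the gene did not pass the filter, no fold is given. Clec4b1 shares 8.68% of its 50-base stretches with other genes, most often Clec4a2, which was read far more deeply.

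The DCIR genes differed widely in level. Clec4a2, the inhibitory receptor DCIR1, had 136, 110 and 102 CPM in mTOR-/- and 116, 128 and 127 CPM in WT, with overlapping groups and a log2 fold change of -0.09 (SE 0.12). Clec4a3 (DCIR3) had 10.1, 10.2 and 8.19 CPM in mTOR-/- and 15.1, 13.3 and 14.2 CPM in WT. The groups of Clec4a3 did not overlap, and its log2 fold change was -0.58 (SE 0.18). This is short of the fold threshold, and Clec4a3 did not pass with the fold threshold taken away either. Clec4a1 (DCIR4) was read 16, 31 and 45 times in mTOR-/- and 46, 63 and 38 times in WT. These low counts overlapped and gave a log2 fold change of -0.52 (SE 0.45), the widest error among the receptors with reads in both groups.

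Of the 6 tested receptors in the run on chromosome 6, 0 lay past both thresholds, beside 1.69% of all tested genes. Their log2 fold changes ran from -0.58 to -0.04. Clec4b2, which lies within the run but is not among the 10 receptors, had a log2 fold change of 1.2 and was not called.

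**Figure D2:**
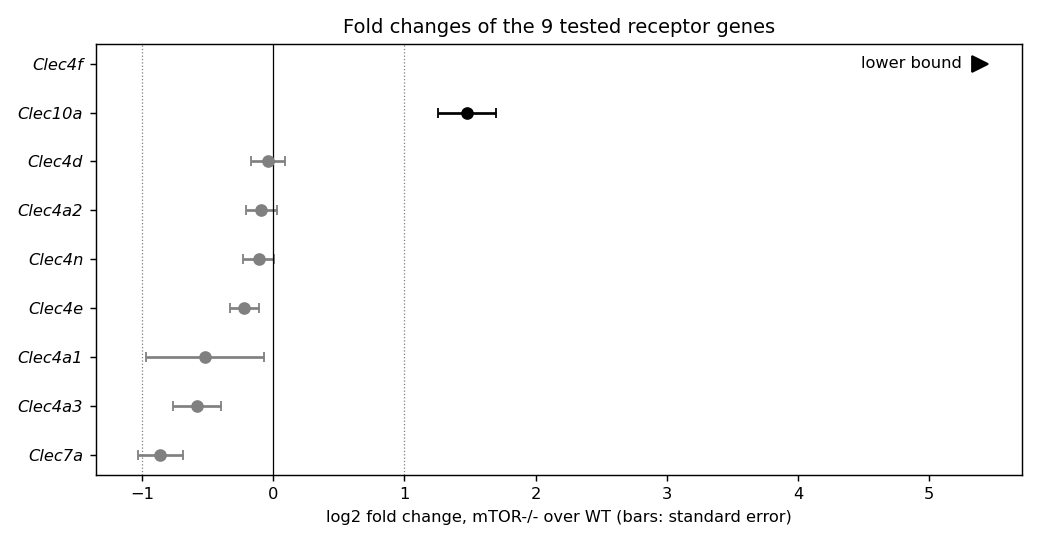
Log2 fold change of mTOR-/- over WT for the receptors that passed the filter, with bars of 1 SE derived from the edgeR F statistic and the fold threshold of 2 as lines. Clec4f is an arrowhead at its lower bound, Clec10a lies right of the upper threshold at 1.48, and Clec7a stops short of the lower threshold at -0.86.

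To compare one receptor with another, CPM were divided by the length of each gene's merged exons in kb (CPM per kb). On this scale Clec4n was first in both groups, with a mean of 333 CPM per kb in mTOR-/- and 359 in WT, and Clec4d followed with 204 and 209. The next places differed between the groups. In mTOR-/- the third was Clec10a at 43.0 CPM per kb, whose libraries overlapped those of Clec4a2 at 39.7, then Clec7a at 27.2 and Clec4e at 15.4. In WT the third was Clec7a at 49.5 CPM per kb, then Clec4a2 at 42.3, Clec4e at 18.0 and Clec10a at 15.4, and the libraries of the last 2 overlapped. Below these came Clec4a3 at 7.15 CPM per kb in mTOR-/- and 10.7 in WT, and Clec4a1 at 1.53 and 2.20. Clec4f at 3.57 CPM per kb stood between those genes in mTOR-/-, and in WT it was last at 0, with the libraries of Clec4b1 (0.328) reaching down to it.

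**Figure D3:**
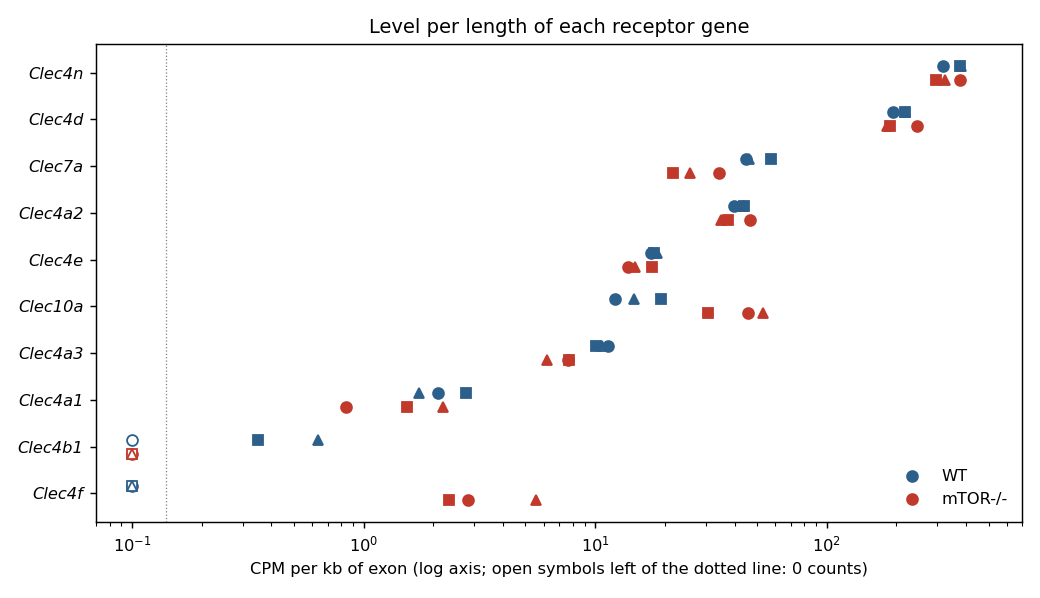
Level of the 10 receptor genes in CPM per kb of exon on a log axis, in mTOR-/- and WT libraries, where open symbols left of the dotted line are libraries with 0 counts. Clec4n and Clec4d are first in both groups, and the order of Clec10a and Clec7a is reversed between them.

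The summed level of the 10 receptors was 603 to 773 CPM per kb in mTOR-/- and 638 to 746 in WT, so the groups overlapped in the total. Clec4n alone made up 48.7% to 50.1% of this sum in mTOR-/- and 49.8% to 51.8% in WT. Clec10a took 5.07% to 8.15% in mTOR-/- and 1.91% to 2.58% in WT. Clec7a took 3.60% to 4.45% and 6.29% to 7.68%. As a consequence the ratio of Clec7a to Clec10a per kb was 0.754, 0.711 and 0.484 in mTOR-/- against 3.68, 2.98 and 3.15 in WT, a description that follows from the values above.

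Genes with the profile most like a receptor were found by the distance between centred log2 CPM over the 6 libraries, which mainly reflects the difference between groups. Nearest to Clec4f were Greb1l (distance 1.28), Capn11 (1.3) and Itgad (1.44), the integrin alpha D chain. Greb1l had 65, 88 and 69 counts in mTOR-/- and 0 throughout WT, Capn11 had 56, 65 and 113 against 0, 2 and 0, and Itgad had 91, 96 and 143 against 0, 4 and 0. Nearest to Clec10a were RP24-226D9.3 (0.36), Mx1 (0.38), an antiviral gene induced by interferon, and Gpr137b (0.39). Nearest to Clec7a were Tmem144 (0.17), Dhps (0.22) and Man1c1 (0.30).

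Of 45 other C-type lectin genes, 26 were tested. The median log2 fold change of these genes was 0.40, with 19 above and 7 below 0, while the median of the 9 receptors was -0.11.

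Clec5a, a DAP12-coupled lectin, had 210, 193 and 188 CPM in mTOR-/- and 114, 130 and 143 CPM in WT (log2 fold change 0.62, adjusted p = 0.0146 by edgeR), short of the fold threshold. The other abundant ones were Cd93 at a log2 fold change of -0.08 (adjusted p = 0.666 by edgeR) and Cd69 at 0.36 (adjusted p = 0.174 by edgeR). Clec4b2, named after its values were seen because it lies inside the run on chromosome 6, 25172 bases from Clec4n, had 56, 51 and 63 counts in mTOR-/- and 29, 10 and 43 in WT, and was not called (log2 fold change 1.2, SE 0.51, adjusted p = 0.219 by edgeR). Reads of 11 of the 45 genes were at 0 in every library, among them Cd207, Clec4g and Asgr1.

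The signalling genes that the receptors share were tested next. Of 37 listed genes, 35 were tested and 0 were called by edgeR, with 8 at an unadjusted p under 0.05 and 0 called by DESeq2. Their log2 fold changes ran from -0.22 to 0.92 with a median of 0.07. Syk, the kinase on which the route converges, had 678, 611 and 670 CPM in mTOR-/- and 611, 647 and 636 CPM in WT (log2 fold change 0.05, adjusted p = 0.795 by edgeR). Tyrobp (DAP12) was at 0.01 (adjusted p = 0.974 by edgeR), and Prkcd, the kinase that acts on CARD9, at 0.28 (adjusted p = 0.244). Card9 and Map3k14, named after their values were seen, had log2 fold changes of 0.69 (adjusted p = 0.0634 by edgeR) and 0.92 (adjusted p = 0.015). Map3k14, the NF-kB inducing kinase, passed on p alone, with a fold of 1.89.

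Of 27 target genes of CARD9 and NFAT, 22 were tested and 3 were called (13.6%, beside 1.69% of all tested genes), 1 higher and 2 lower. This list was chosen with earlier results of these data known, so the share is a description. Nos2, the inducible nitric oxide synthase, fell from 127, 120 and 128 counts in WT to 5, 15 and 13 in mTOR-/- (log2 fold change -3.34, SE 0.39, adjusted p = 0.00255 by edgeR's quasi-likelihood test). Ccl2, the monocyte chemokine, fell from 153, 148 and 177 counts to 57, 30 and 52 (log2 fold change -1.62, SE 0.29, adjusted p = 0.0176). Il1b, encoding interleukin-1 beta, rose from 72, 104 and 76 counts to 172, 240 and 138 (log2 fold change 1.29, SE 0.26, adjusted p = 0.029 by edgeR). The groups did not overlap for 14 of the 22 tested targets, these 3 among them, beside 28.4% of all tested genes.

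With single libraries left out, Nos2 was called in 6 of 6 fits, Ccl2 in 3, losing its call without any one WT replicate, and Il1b in 1, the fit without mTOR-/- replicate 3. The abundant targets were Cxcl2 (log2 fold change 0.42, adjusted p = 0.0711 by edgeR), Egr1 (0.78, adjusted p = 0.00651, under the fold threshold) and Ccl3 (-0.19, adjusted p = 0.306). Il10 and Il2 were at 0 in every library. These genes are also induced through many receptors other than lectins.

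**Figure D4:**
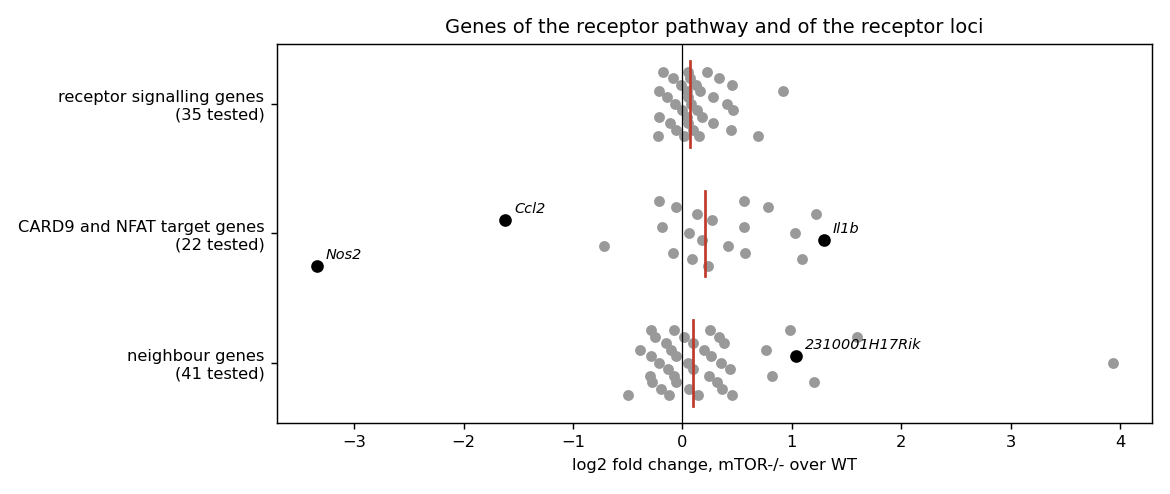
Log2 fold change of mTOR-/- over WT for the tested genes of 3 lists, receptor signalling genes, CARD9 and NFAT targets and neighbour genes, with called genes in black and list medians as red lines. The signalling genes lie between -0.22 and 0.92 with none called, and Nos2 stands alone at -3.34 among the targets.

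Genes near the receptors were examined for change along the chromosome. Of 41 tested genes within 250 kb of a receptor, 1 was called (2.44%, beside 1.69% of all tested genes), and the median log2 fold change was 0.10. It was 2310001H17Rik, 222866 bases from Clec7a, at 13.8, 13.4 and 16.1 CPM in mTOR-/- and 5.97, 6.97 and 8.05 CPM in WT (log2 fold change 1.04, SE 0.20, adjusted p = 0.0244 by edgeR's quasi-likelihood test). Its sign was opposite to that of Clec7a, and with single libraries left out it was called in 1 of 6 fits, the one without mTOR-/- replicate 2. The most abundant neighbours, Eif5a (log2 fold change 0.05, adjusted p = 0.871 by edgeR) and Gabarap (-0.30, adjusted p = 0.202), were not called. The neighbour with the largest log2 fold change was Slc16a11, named after its values were seen, which lies 41918 bases from Clec10a. It had 13, 19 and 14 counts in mTOR-/- against 0, 3 and 0 in WT and was not called (adjusted p = 0.0616 by edgeR). Asgr2, 50010 bases from Clec10a and named likewise, had a log2 fold change of 1.59 (SE 0.59, adjusted p = 0.169) and was not called. Alox15, 173318 bases from Clec10a and also named after its values were seen, went the other way. Its log2 fold change was -0.5 (SE 0.12, adjusted p = 0.0448 by edgeR), short of the fold threshold. Of the 41 neighbours, 24 had a positive and 17 a negative log2 fold change.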

How the data were processed

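RNA from 3 mTOR-/- and 3 WT M-MDSC samples was sequenced. Per the study's methods the authors used Bowtie2 for alignment to mm10 and HTSeq for counts per gene, whereas the submitters' processing notes name HISAT2 2.0.4, StringTie 1.3.0 and the builds GRCm38.p4 and mm9. Strand setting and annotation are not given in the sources used here. The authors deposited unnormalized counts, which were used for every test, and FPKM values, whose implied gene lengths exceeded the gene's own span for 748 of 11446 genes that reached 10 counts in all 6 libraries (Clec4e among them). FPKM were therefore not used for levels, and CPM were divided by merged exon lengths of GENCODE M21, which held 98.6% of the gene identifiers. The deposited comparison of the groups (fold changes and p-values) was not used, nor were 24 columns that repeat counts and FPKM in other tables.

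Counts were tested with R 4.3.3 and edgeR 4.0.16 (filterByExpr with a minimum count of 10 and a minimum total of 15, TMM factors of 0.986 to 1.01, quasi-likelihood F test, Benjamini-Hochberg adjustment over 12537 genes), with the study's thresholds of 0.05 for the adjusted p and 2 for the fold. The SE given with an edgeR log2 fold change is its absolute value divided by the square root of the F statistic. The biological coefficient of variation was 19%. The method was tested on simulated data. Groups came from the sample labels. The receptors and all gene lists were chosen with earlier results of these data known. Named genes were all 10 receptors, the called genes of each list (at most 8), the 3 most abundant tested genes of each list, the 3 nearest profiles of Clec4f, Clec10a and Clec7a, the checks Mtor, Lyz2 and H2-Ea-ps, and markers from listed genes. Rubcn, on the signalling list, matched no gene, and 1 gene on the list of other C-type lectins is not reported here. Alternatives were RLE and upper quartile normalization, DESeq2 1.42.0, other filters, no fold threshold, a replicate block and each library left out.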

Additional observations from a re-analysis of the deposited data

How the results depend on the processing

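The receptors were chosen on this comparison, so their counts under other settings are a description and no sign of stability. With at least 10 counts required in every library Clec4f could not be tested, and 1 receptor remained past the thresholds. With no fold threshold 3 receptors passed (Clec7a joined), as without mTOR-/- replicate 1, and the count was 2 to 3 with single libraries left out.

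Over all tested genes, 212 calls became 357 with DESeq2, 507 with no fold threshold and 114 to 229 with single libraries left out, of which 128, 114 and 120 were without WT replicate 1, 2 and 3. With no fold threshold the calls were 3 among other C-type lectin genes, 1 among signalling genes, 8 among CARD9 and NFAT targets and 2 among neighbour genes. With single libraries left out they were 0 to 1 for other C-type lectin genes, 0 for signalling genes, 1 to 3 for the targets and 0 to 1 for neighbour genes. The targets had 1 call without any one WT replicate. Neighbour genes had 2 calls with DESeq2, 0 with the replicate block and 0 within 100 kb in place of 250 kb.

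The replicate numbers did not pair the libraries: deviations of same-numbered libraries from their group means correlated at -0.08, -0.03 and -0.06 across 12537 genes, and no library correlated best with its own number. With the number as a block 164 genes were called and 2 receptors lay past the thresholds.

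A level under the floor of 3 counts could not be detected, which limits Clec4b1 and WT Clec4f, and 3 libraries per group limit every call.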

Other observations

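Markers of monocytes and of other blood cells were read in the same libraries as the receptors. Monocyte markers summed to 2214 to 2518 CPM in mTOR-/- and 3475 to 5125 CPM in WT without Itgam, whose symbol names 2 genes, and 1 of 7 tested was called (Lyz2, lower). Lyz2, the gene that drives the Cre, carried this difference: without it the other 7 markers summed to 1241 to 1322 CPM in mTOR-/- and 1146 to 1386 CPM in WT, and the groups overlapped. Cd14 (log2 fold change 0.95, adjusted p = 0.00128 by edgeR) and Csf1r (0.50, adjusted p = 0.0136) were higher in mTOR-/- and short of the fold threshold. Ly6c2 went the other way, with 72.6, 84.9 and 104 CPM in mTOR-/- and 182, 116 and 226 CPM in WT. Its groups did not overlap, and it was not called (log2 fold change -1.0, SE 0.23, adjusted p = 0.0426 by edgeR). Neutrophil markers had 2 of 10 called (Ly6g higher, Ltf lower), mast cell and basophil markers 3 of 7 (Cpa3, Mcpt8 and Kit, all lower), and lymphoid markers 0 of 1 tested by edgeR (0 at an unadjusted p under 0.05, 0 by DESeq2). Over all tested genes 1.69% were called. The part of these markers in the receptor levels was not tested.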
